A study of Mus musculus with 16 samples.

Results

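The 37 genes described here carry out DNA replication or start it at the G1/S step of the cell cycle. They were chosen by symbol from a list that names replication factors, enzymes of nucleotide supply, factors that copy chromatin, E2f1 and the E cyclins, and all 37 were found among the 32078 genes of the deposited table. Expression was measured by RNA sequencing of whole skin from 7-week-old mice in 16 libraries. They form 8 groups of 2. SDS_D0, SDS_D1, SDS_D3 and SDS_D5 are skin at days 0, 1, 3 and 5 under SDS (sodium dodecyl sulfate) put on the skin, a detergent and irritant. SDS_D0_Topsym, SDS_D1_Topsym, SDS_D3_Topsym and SDS_D5_Topsym are the same days with Topsym, known as a trade name for the potent topical glucocorticoid fluocinonide (background, not in the labels). All 8 groups carry SDS in their titles, and no strain, sex or genetic change is named in the labels. The labels put the treatment at 4 days although titles reach day 5, and do not say how either agent was timed against the sampling days. A change from day 0 therefore holds the effects of SDS, of time, of the animals and of the tissue taken, which cannot be told apart.

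A cell that commits to divide first loads the MCM helicase onto its replication origins and then, past the G1/S step, switches the helicase on, copies the DNA behind it and rebuilds the chromatin. The genes of this machinery are classic targets of E2F transcription factors, which are held back by the retinoblastoma family until cyclin kinases release them, so their RNA is high in cycling cells and low in resting cells. In skin the cycling cells lie mostly in the basal layer of the epidermis and in growing hair follicles. In bulk RNA of whole skin, fewer cycling cells and less of the RNA per cell cannot be told apart.

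The spelling that E2F factors bind was counted in the members' promoters, because genes of this machinery are classic E2F targets. The members were chosen as such genes, so a high share is no independent result. A part of the spelling in the changes below was not tested. RefSeq promoter windows (250 bases before to 50 after a gene's start, GRCm38.p6) were at hand for 31 of the 37 genes, without Ccne2, Gins1, Gins2, Gins4, Mcm4 and Pole. The spellings searched were TTTGGCGC, TTTCGCGC, TTTCCCGC and TTTGCCGC, each on both strands, with overlapping matches merged. Of the 31, 14 (45.2%) held at least 1 of them, against 704 of 27025 genes with such a window (2.60%). Related lists held such matches too, with 7 of 15 other G1/S regulators (46.7%) and 9 of 33 other replication factors (27.3%). TTTCGCGC stood in 7 of the 31 (22.6%) and in 101 of all (0.374%), and TTTCCCGC stood in 7 (22.6%) and in 334 of all (1.24%). TTTGGCGC stood in 5 (16.1%) and in 158 of all (0.585%), and TTTGCCGC in none of the 31 and in 137 of all (0.507%). Among the 31, 8 (25.8%) held a match wholly before the RefSeq start, against 583 of all (2.16%). The CCAAT box, searched as CCAAT on both strands, stood in 19 of the 31 (61.3%) and in 11096 of all (41.1%), and 10 (32.3%) held both, against 304 of all (1.12%). A match describes the letters of a window and does not show that a factor binds there, and a window without a match says nothing of the factor.

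The windows of 3 genes are shown because they lie before the start of the gene in both RefSeq and GENCODE. They belong to Mcm5, Mcm6 (with 2 windows) and Pola1, and the values of these genes are given further on. Each reads 5′ to 3′ on the strand of its gene, in lower case with the matched letters in capitals. In Mcm5 and in the farther window of Mcm6 the capitals hold 2 overlapping matches that face each other.
Mcm5, chr8:75109336-75109387, plus strand: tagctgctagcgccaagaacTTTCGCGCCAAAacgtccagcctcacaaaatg
Mcm6, chr1:128359725-128359772, minus strand: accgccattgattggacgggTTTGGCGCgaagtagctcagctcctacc
Mcm6, chr1:128359784-128359835, minus strand: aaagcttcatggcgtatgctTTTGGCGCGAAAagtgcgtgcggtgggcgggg
Pola1, chrX:93632266-93632313, minus strand: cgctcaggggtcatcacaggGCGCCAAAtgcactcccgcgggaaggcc

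**Figure D1:**
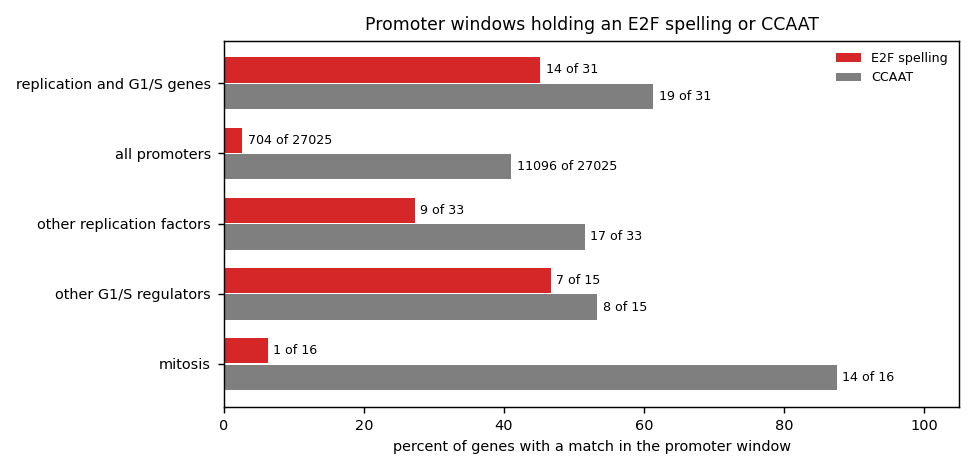
Share of genes whose promoter window holds an E2F spelling (red) or CCAAT (grey), in percent on the x axis, for the replication and G1/S genes, all genes with a window and 3 related lists; the labels on the bars give the counts. The E2F share is 45.2% in the replication and G1/S genes, 2.60% in all genes, 46.7% in the other G1/S regulators, 27.3% in the other replication factors and 6.25% in the mitosis genes, where CCAAT reaches 87.5%.

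The libraries held 15199656 to 32066246 reads, and values are reads normalised by the size factor of the library. Where a group has 2 values joined by "and", they are replicate 1 and replicate 2, and means are given ± SD of those 2 libraries (n = 2). Changes are on the scale log2(normalised reads + 1), each with the standard error (SE) that limma gives. A call is an adjusted p of limma under 0.05 over the 19189 genes that passed the filter on low values, and all 37 genes passed it. Separate animals are not stated for the libraries of a group, so a p-value speaks only of the spread among these libraries, possibly a technical one. The markers of basal keratinocytes, Krt5 and Krt14, were detected in every library, at means of 131501 ± 3216 and 97405 ± 2289.5 normalised reads at day 0 of SDS alone. In units of normalised reads per kb of exon, over all libraries, the sliding clamp Pcna had the highest level of the 37 (812), followed by Rrm2 (451), Gins4 (417) and Mcm6 (399.5), and the flap nuclease Fen1 had the lowest (8.20). Exons of 11 of the 37 share bases with another gene. The share is over 50% in Fen1 (84.2%, with Tmem258 and Gm10143), Gins2 (67.3%, with Gse1) and Chaf1a (52.5%, with Ubxn6), all on the opposite strand, and no source used here says if reads were counted by strand, so the values of these 3 are uncertain. Pcna and Tyms have pseudogene copies in the annotation, with which reads may be shared.

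In SDS alone the replication genes dropped at day 1, were back near their day 0 level at day 3 and stood well above it at day 5. The summed level of the 37 genes was 19329 and 19427 normalised reads at day 0, 10475 and 10309.6 at day 1, 18126 and 17915 at day 3 and 35950.3 and 36599 at day 5. Of the 37, 36 had their lowest group mean at day 1, all but the primase gene Prim1, and 35 had their highest at day 5, all but Pold1 and E2f1, which were highest at day 0.

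At day 1 of SDS alone, 32 of the 37 had fallen and 0 had risen, where 26.2% of all genes tested were called, 13.5% lower and 12.8% higher. The median change of the 37 was log2 -1.03, against -0.03 for all genes tested. The largest fall was that of Pclaf, the PCNA-binding factor (log2 -2.73, SE 0.18, adjusted p = 6.59e-09), followed by Ccne1, which encodes cyclin E (log2 -1.95, SE 0.29, adjusted p = 6.86e-05). Mcm10, Clspn and Uhrf1 fell too (log2 -1.90, -1.89 and -1.89). The 5 genes without a call were Fen1 (-0.06), Mcm7 (-0.11), Rfc4 (-0.22), Gins4 (-0.25) and Gins3 (-0.62). Of these calls, 28 held in every alternative setting, while the calls of Ccne2, Rfc3, Rpa2 and Rrm2 were lost when a single library was left out (SDS_D0 replicate 1 or 2 or SDS_D1 replicate 1 or 2), with log2 from -0.97 to -0.28 there.

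From day 1 to day 3 of SDS alone, 28 of the 37 rose and none fell, with 42.2% of all genes called and 23.6% called higher, and the median change was log2 0.84, against 0.04 for all genes. Ccne1 rose most (log2 2.63, SE 0.29, adjusted p = 1.13e-06), then Mcm10 (2.37) and the GINS subunit gene Gins1 (1.91). Those without a call were Ccne2, Cdc6, Fen1, Gins3, Gins4, Pola1, Pold1, Prim1 and Rfc4. Of these calls, 24 held in every alternative setting, while the calls of E2f1, Mcm7, Rfc3 and Rpa2 were lost when a single library was left out (SDS_D0_Topsym replicate 1 or 2, SDS_D1 replicate 1 or 2 or SDS_D3 replicate 1 or 2), with log2 from 0.21 to 0.53 there.

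Set against day 0, the share of the 37 called at day 3 of SDS alone was near that of all genes. Of the 37, 5 were higher and 12 lower, with 49.6% of all genes called, 25.4% higher and 24.2% lower, and the median was log2 -0.14, against -0.01. The higher ones were Gins1 (0.66), Rrm2 (0.65), Cdt1 (0.59), Chaf1b (0.42) and Mcm3 (0.28). The lower ones were led by Pclaf (log2 -1.73, SE 0.18, adjusted p = 4.34e-07) and held all 4 genes of the primase and polymerases, Prim1 (-0.84), Pold1 (-0.78), Pola1 (-0.75) and Pole (-0.46). Of these calls, 10 held in every alternative setting, while the calls of Cdc45, Chaf1b, Clspn, Gins1, Mcm3, Pole and Rrm1 were lost when a single library was left out (SDS_D0 replicate 1 or 2 or SDS_D3 replicate 1 or 2), with log2 from -0.52 to 0.75 there. Without SDS_D0 replicate 1, only 3 of the 37 were called higher.

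Day 5 of SDS alone brought the highest levels. Against day 3, 34 of the 37 rose and none fell (63.4% of all genes called, 28.9% higher), with a median of log2 0.89 against -0.07. Against day 0, 31 were higher and 1 was lower (66.5% of all genes called, 30.7% higher and 35.8% lower), with a median of log2 0.82 against -0.09. Ccne1 led with log2 2.34, SE 0.29, adjusted p = 1.93e-06, and Rrm2 (1.92), Mcm10 (1.68), Gins1 (1.52) and Mcm5 (1.44) followed. The lower gene was E2f1 itself (log2 -0.59, SE 0.13, adjusted p = 0.000954). No call was made for Ccne2 (0.20), Cdc6 (0.17), Pola1 (0.16), Gins3 (0.04) and Pold1 (-0.24). Of the calls against day 0, 26 held in every alternative setting, while the calls of Cdc45, Fen1, Gins2, Pclaf, Rpa2 and Tyms were lost when a single library was left out (SDS_D0 replicate 1 or 2, SDS_D0_Topsym replicate 1 or 2, SDS_D3 replicate 1 or 2, SDS_D3_Topsym replicate 1 or 2 or SDS_D5 replicate 1 or 2), with log2 from 0.25 to 1.06 there. Of the calls against day 3, 31 held in every alternative setting, while the calls of Ccne2, Cdc6 and Gins2 were lost when a single library was left out (SDS_D3 replicate 1 or 2 or SDS_D5 replicate 1 or 2), with log2 from 0.48 to 0.84 there. Without SDS_D5 replicate 1, a count of 2 were lower than at day 0.

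With Topsym the drop at day 1 was followed by a larger rise to day 3. The summed level of the 37 genes was 24458 and 24383 normalised reads at day 0, 9075 and 9017 at day 1, 35048 and 35378 at day 3 and 42272 and 41877 at day 5. All 37 had their lowest group mean at day 1. The highest mean was at day 5 in 30, at day 3 in 6 and at day 0 in E2f1.

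At day 1 with Topsym, 35 of the 37 were lower than at day 0 and none higher, all but Fen1 (-0.94) and Gins3 (-0.54), where 40.8% of all genes were called, 20.5% lower and 20.3% higher. The median was log2 -1.52, against -0.03 for all genes. Pclaf again fell most (log2 -3.34, SE 0.18, adjusted p = 2.20e-10), then Clspn (-2.63), Gins2 (-2.59), Uhrf1 (-2.53) and Ccne1 (-2.49). From day 1 to day 3, 36 rose and none fell, all but Gins3 (0.46), where 45.0% of all genes were called and 22.1% called higher, and the median was log2 1.93 against -0.06. The largest rises were those of Pclaf (log2 4.29, SE 0.18, adjusted p = 7.75e-12) and Ccne1 (4.02). The call of Ccne2 at day 1 was lost without SDS_D0_Topsym replicate 1 or SDS_D1_Topsym replicate 2 (log2 -0.94 to -0.83), and the rise of Gins4 (0.30) was lost without SDS_D1_Topsym replicate 1 or 2, SDS_D3 replicate 1 or 2 or SDS_D3_Topsym replicate 1 (log2 0.22 to 0.32).

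At day 3 with Topsym, 19 of the 37 were above day 0 and 2, E2f1 (-1.15) and Gins4 (-0.34), below it, with 55.2% of all genes called, 27.0% higher and 28.2% lower. The median was log2 0.32, against -0.04, and Rrm2 (log2 1.99, SE 0.09, adjusted p = 1.62e-11), Ccne1 (1.54), Ccne2 (1.29) and Rrm1 (1.15) led. Of these calls, 15 held in every alternative setting, while the calls of Clspn, Gins4, Lig1, Mcm10, Rfc5 and Tyms were lost when a single library was left out (SDS_D0_Topsym replicate 1 or 2 or SDS_D3_Topsym replicate 1 or 2), with log2 from -0.26 to 0.49 there. Without SDS_D0_Topsym replicate 1 or without SDS_D3_Topsym replicate 2, a count of 1 was lower.

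By day 5 with Topsym, 28 were above day 0 and 1, E2f1 (-0.68), below it (70.2% of all genes called, 32.8% higher and 37.5% lower), with a median of log2 0.76 against -0.08. Between day 3 and day 5, 18 rose and none fell (62.2% of all genes called, 27.1% higher), with a median of log2 0.27 against -0.13. Tk1 (0.99), Lig1 (0.87), Gins2 (0.85) and Gins1 (0.84) rose most in that step. Of the calls against day 0, 24 held in every alternative setting, while the calls of Ccne2, Mcm6, Prim1, Rfc3 and Rfc4 were lost when a single library was left out (SDS_D0_Topsym replicate 1 or 2 or SDS_D5_Topsym replicate 1 or 2), with log2 from 0.16 to 0.65 there. Of the calls against day 3, 9 held in every alternative setting, while the calls of Chaf1a, E2f1, Gins2, Mcm5, Rfc5, Rpa2, Rrm1, Tyms and Uhrf1 were lost when a single library was left out (SDS_D0_Topsym replicate 1 or 2, SDS_D3_Topsym replicate 1 or 2 or SDS_D5_Topsym replicate 1 or 2), with log2 from 0.11 to 0.75 there. Without SDS_D3_Topsym replicate 1 or without SDS_D5_Topsym replicate 1, 11 of the 37 rose from day 3.

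**Figure D2:**
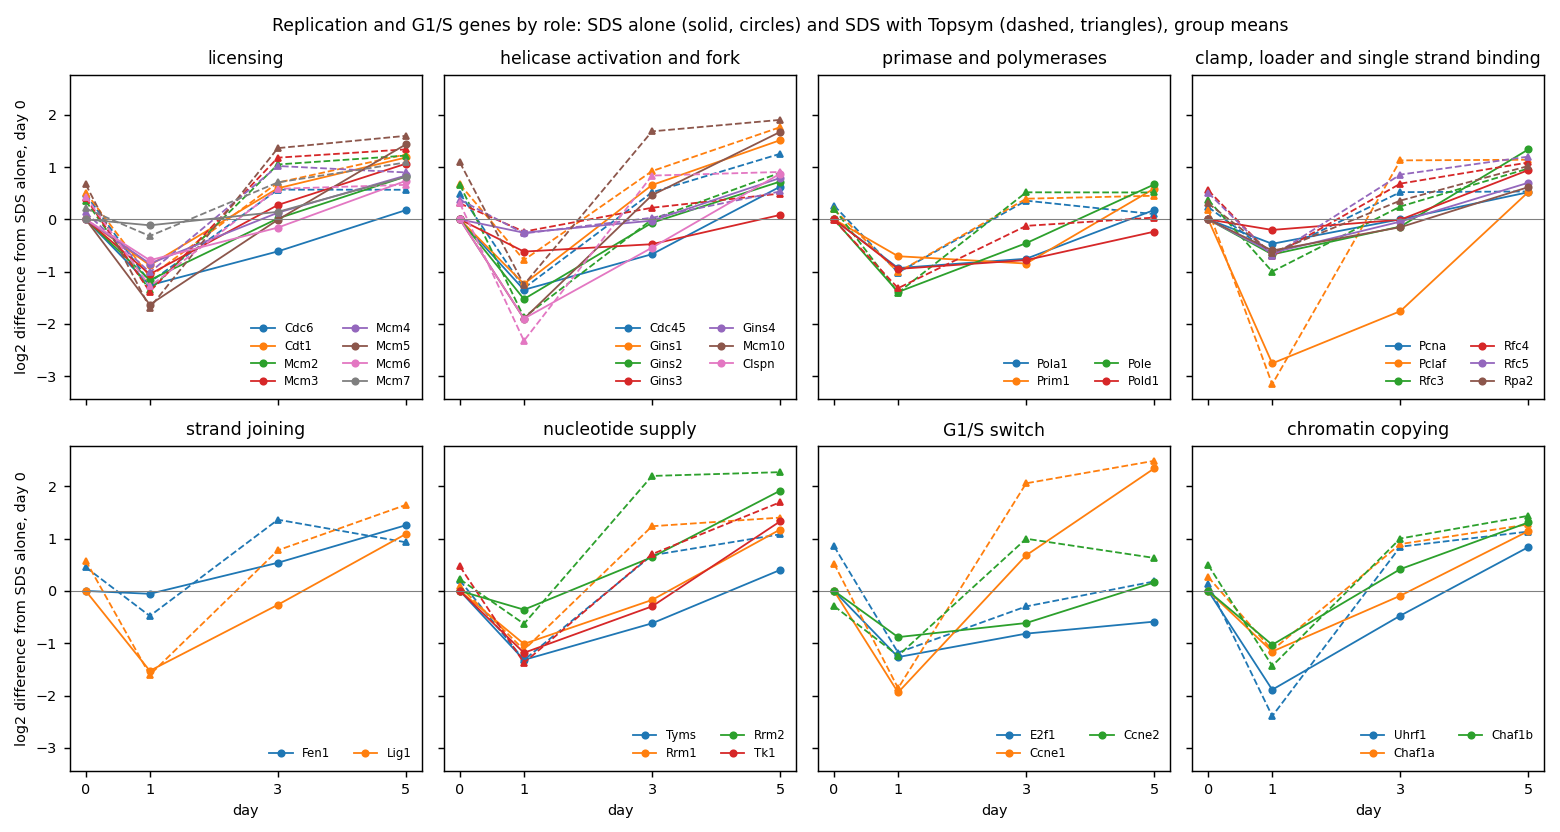
Group mean of each of the 37 genes as a log2 difference from day 0 of SDS alone (y axis) by day (x axis), with 1 panel for each role and 1 color for each gene; solid lines with circles are SDS alone and dashed lines with triangles are SDS with Topsym. Day 1 is the low point of the lines in both arms except for Prim1 in SDS alone, and at day 3 the dashed lines lie above the solid ones for all 37 genes.

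Compared at the same day, most of the 37 genes differed with Topsym at day 3, while the share called at day 1 was near that of all genes. At day 3, 31 of the 37 were higher with Topsym and none lower, where 43.8% of all genes were called and 20.8% called higher. The median was log2 0.97, against -0.04 for all genes tested. Pclaf differed most (log2 2.88, SE 0.18, adjusted p = 1.08e-09), then Ccne2 (log2 1.65, SE 0.27, adjusted p = 8.71e-05), Rrm2 (1.55), Rrm1 (1.41), Ccne1 (1.38), Clspn (1.38) and Mcm5 (1.37). No call was made for Gins4 (0.05), Gins2 (0.06), Cdt1 (0.11), Gins1 (0.27), Rfc3 (0.41) and Fen1 (0.84). Of these calls, 28 held in every alternative setting, while the calls of Gins3, Rfc4 and Rpa2 were lost when a single library was left out (SDS_D3 replicate 1 or 2 or SDS_D3_Topsym replicate 1 or 2), with log2 from 0.44 to 0.79 there.

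At day 1, 4 of the 37 were lower with Topsym and none higher (9.80% of all genes called, 4.29% lower and 5.51% higher), with a median of log2 -0.19 against 0.00. They were Uhrf1 (log2 -0.51, SE 0.08, adjusted p = 0.000716), Mcm6 (log2 -0.50, SE 0.07, adjusted p = 9.81e-05), Chaf1b (-0.40) and Mcm3 (-0.33). The count was 2 without SDS_D1 replicate 1 or without SDS_D1_Topsym replicate 2, 1 when only the libraries compared were fitted, and 7 with edgeR on the recovered reads. Mcm6 held in every alternative setting, and the call of Uhrf1 was lost when only the libraries compared were fitted. The call of Mcm3 was lost without SDS_D1 replicate 1 or SDS_D1_Topsym replicate 2 (log2 -0.32 to -0.29) and that of Chaf1b without SDS_D1 replicate 1 or 2 or SDS_D1_Topsym replicate 1 or 2 (log2 -0.46 to -0.35).

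At day 0, 14 were higher in the group with Topsym and none lower (22.0% of all genes called, 10.8% higher), with a median of log2 0.37 against 0.00. The largest differences were those of Mcm10, whose values in each library are given further on, E2f1 (log2 0.86, SE 0.13, adjusted p = 0.000142), Gins1 (0.68), Mcm5 (0.67) and Lig1 (0.58). The 2 day 0 groups also differed in the 6 skeletal muscle markers, all called lower with Topsym, with summed levels of 393811 and 387334 in SDS alone and 136076 and 132343 with Topsym, and in the 6 erythroid markers, all called higher, with 2403 and 3070.1 and 9709.7 and 11039.6. The 7 measured genes of the hair matrix and shaft summed to 1315 and 1248 in SDS alone and 2009 and 1975 with Topsym, where 3 were called higher. The part of these shifts in the replication genes' differences was not tested, and each change from day 0 with Topsym starts from them. Of these calls, 8 held in every alternative setting, while the calls of Gins1, Gins4, Mcm2, Pcna, Rfc5 and Tk1 were lost when a single library was left out (SDS_D0 replicate 1 or 2, SDS_D0_Topsym replicate 1 or 2, SDS_D3 replicate 1 or 2 or SDS_D3_Topsym replicate 1 or 2), with log2 from 0.20 to 0.82 there.

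At day 5, 13 were higher with Topsym and none lower (46.8% of all genes called, 22.6% higher), with a median of log2 0.23 against -0.01. E2f1 (log2 0.76, SE 0.13, adjusted p = 0.000178), the thymidylate synthase gene Tyms (0.68), Cdc45 (0.63) and Pclaf (0.62) differed most. The count was 8 when only the libraries compared were fitted. Of these calls, 5 held in every alternative setting, while the calls of Cdc45, Mcm7, Pclaf, Rrm1, Tk1 and Uhrf1 were lost when a single library was left out (SDS_D5 replicate 1 or SDS_D5_Topsym replicate 1 or 2), with log2 from 0.13 to 0.55 there. The calls of E2f1 (0.76) and Rfc5 (0.51) were lost when only the libraries compared were fitted.

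**Figure D3:**
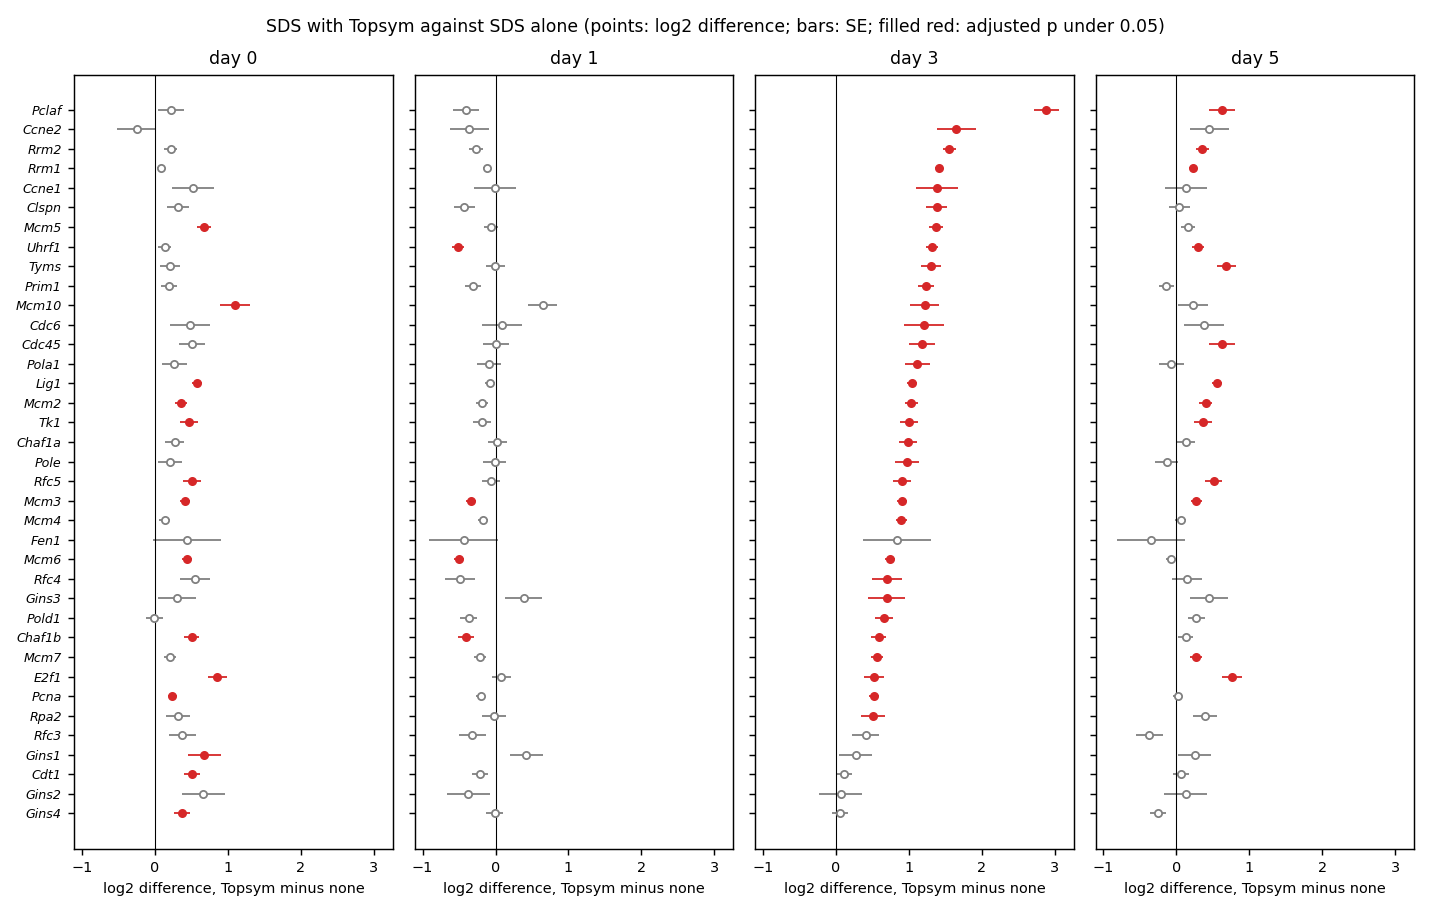
Difference between SDS with Topsym and SDS alone at each day for the 37 genes, ordered by day 3, as log2 (x axis) with the SE as bars; filled red points have an adjusted p of limma under 0.05. At day 3 31 points are filled, all to the right of 0, against 14 at day 0, 4 at day 1, all to the left, and 13 at day 5.

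The difference between the arms was tested step by step. From day 0 to day 1 the change was lower with Topsym in 17 of the 37 (17.2% of all genes called, 8.06% lower and 9.18% higher), with a median difference of log2 -0.50 against -0.02. This step starts from day 0 groups that themselves differ, as given above, and the count was 11 without SDS_D1 replicate 1. From day 1 to day 3 the rise was larger with Topsym in 28 (34.8% called, 16.7% higher), with a median of log2 1.12 against -0.04. From day 3 to day 5 the change was lower with Topsym in 23 (37.3% called, 18.4% lower), with a median of log2 -0.63 against 0.01. None of the 37 was called the other way in any of the 3 steps. Of the calls in the earliest step, 10 held in every alternative setting, while the calls of Clspn, Mcm7, Prim1, Rfc4, Rfc5, Rrm2 and Tk1 were lost when a single library was left out (SDS_D0 replicate 1 or 2, SDS_D0_Topsym replicate 1 or 2, SDS_D1 replicate 1 or 2 or SDS_D1_Topsym replicate 1 or 2), with log2 from -1.04 to -0.32 there. From day 1 to day 3, 25 held in every alternative setting, while the calls of Ccne1, Cdc6 and Rfc3 were lost when a single library was left out (SDS_D0_Topsym replicate 1 or 2, SDS_D1 replicate 1 or 2, SDS_D1_Topsym replicate 1 or 2, SDS_D3 replicate 2 or SDS_D3_Topsym replicate 1 or 2), with log2 from 0.47 to 1.27 there. From day 3 to day 5, 17 held in every alternative setting, while the calls of Ccne1, Ccne2, Chaf1b, Mcm10, Rfc3 and Tyms were lost when a single library was left out (SDS_D3 replicate 1 or 2, SDS_D3_Topsym replicate 1 or 2, SDS_D5 replicate 1 or 2 or SDS_D5_Topsym replicate 1 or 2), with log2 from -1.26 to -0.38 there.

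Among the licensing genes, CDC6 and CDT1 load the MCM2 to MCM7 ring onto origins. All 6 Mcm genes of the ring had their lowest mean at day 1 in both arms. Mcm6 (ENSMUSG00000026355, chromosome 1, 128331590 to 128359664), the licensing gene with the highest mean, stood at 1637 and 1681 at day 0, 904 and 1026 at day 1, 1503 and 1473 at day 3, and 2700.3 and 2831 at day 5 of SDS alone. With Topsym it stood at 2156 and 2329 at day 0, 683 and 680.4 at day 1, 2481 and 2497 at day 3, and 2511 and 2735 at day 5. Both day 1 libraries of each arm lay below all others of that arm, and the day 3 libraries with Topsym lay above those of SDS alone (log2 0.74, SE 0.07, adjusted p = 1.15e-07). Mcm5 (ENSMUSG00000005410, chromosome 8, 75109569 to 75128439) had the largest change at day 5 of SDS alone among the licensing genes. It held 787 and 845 at day 0, 284 and 242 at day 1, 772 and 852 at day 3, and 2127 and 2287 at day 5 of SDS alone. With Topsym, Mcm5 held 1327 and 1266 at day 0, 277 and 227 at day 1, 2103 and 2095 at day 3, and 2489 and 2452 at day 5. No group of Mcm5 overlapped its neighbour in time with Topsym, while in SDS alone the day 0 and day 3 libraries overlapped (-0.01, adjusted p = 0.962 of limma). Cdc6 (ENSMUSG00000017499, chromosome 11, 98907801 to 98923940) had the smallest. It held 133 and 115 at day 0, 38.8 and 63.8 at day 1, 95.7 and 66.1 at day 3, and 158 and 123 at day 5 of SDS alone. With Topsym, Cdc6 held 183 and 164 at day 0, 58.9 and 47.9 at day 1, 174 and 195 at day 3, and 214 and 155 at day 5. Its day 1 libraries were the lowest in both arms (log2 -1.30, SE 0.27, adjusted p = 0.00182 in SDS alone), and its day 5 libraries overlapped those of day 0. Cdt1 and Mcm3 were the licensing genes called above day 0 at day 3 of SDS alone. Between the arms at day 3 Cdt1 gave no call (0.11), while Mcm3 was called higher with Topsym. Mcm7 dropped least at day 1 (-0.11 in SDS alone, with no call, and -0.53 with Topsym). Its exons overlap Mir25 and Mir93 on the same strand over 3.89% of their length.

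The helicase becomes active when CDC45 and the GINS complex (Gins1 to Gins4) join the MCM ring with the help of MCM10, and claspin (Clspn) travels with the fork as a checkpoint adaptor. Mcm10 (ENSMUSG00000026669, chromosome 2, 4989714 to 5012791) held 99.5 and 129 at day 0, 26.2 and 33.6 at day 1, 157 and 159 at day 3, and 381 and 351 at day 5 of SDS alone. With Topsym it held 262 and 226 at day 0, 40.9 and 54.1 at day 1, 398 and 341 at day 3, and 395 and 465 at day 5. The low day 1 values lie apart from all others, and at day 3 the arms do not overlap. It fell at day 1 (log2 -1.90, SE 0.20, adjusted p = 2.09e-06 in SDS alone, -2.35 with Topsym) and was above day 0 at day 5 of SDS alone (log2 1.68, SE 0.20, adjusted p = 1.54e-06). The products of the GINS genes form 1 complex, and the genes passed the test in different comparisons. Gins4 (ENSMUSG00000031546, chromosome 8, 23226616 to 23237659), which had the highest mean of this role, held 519 and 466 at day 0, 428 and 396 at day 1, 494 and 474 at day 3, and 804 and 901 at day 5 of SDS alone. With Topsym, Gins4 held 715 and 564 at day 0, 414 and 403 at day 1, 531 and 475 at day 3, and 736 and 690.1 at day 5. Its day 1 libraries were the lowest in both arms, and in SDS alone those of days 0 and 3 overlapped. Gins3 (ENSMUSG00000031669, chromosome 8, 95633453 to 95645060) held 90.7 and 95.4 at day 0, 54.4 and 66.3 at day 1, 68.3 and 65.1 at day 3, and 122 and 75.1 at day 5 of SDS alone. With Topsym, Gins3 held 104 and 127 at day 0, 73.6 and 84.3 at day 1, 102 and 116 at day 3, and 119 and 144 at day 5. Gins3 was called in 1 of the 17 comparisons, Topsym against none at day 3 (log2 0.69, SE 0.26, adjusted p = 0.0382), a call that was lost without SDS_D3 replicate 1 or 2 or SDS_D3_Topsym replicate 1 or 2 (log2 0.60 to 0.79). Gins1 and Gins2 fell at day 1 of SDS alone (log2 -1.24 and -1.55), whereas Gins3 (-0.62) and Gins4 (-0.25) had no call there. At day 3 none of Gins1, Gins2 and Gins4 differed between the arms past the threshold. Cdc45 and Clspn fell at day 1 and rose to day 3 in both arms, and were higher with Topsym at day 3 (1.18 and 1.38). At day 3 of SDS alone both were still called lower than day 0, calls lost when a single library was left out. No Mcm gene of the ring was called lower there.

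The primase and polymerase genes were still low at day 3 of SDS alone. POLA1 and PRIM1 lay the primers, POLE extends the leading strand and POLD1 is the catalytic subunit on the lagging strand. Pold1 (ENSMUSG00000038644, chromosome 7, 44532746 to 44548849), which had both the highest mean and the smallest day 5 change, held 621 and 689 at day 0, 330.2 and 348 at day 1, 405 and 358 at day 3, and 615 and 499 at day 5 of SDS alone. With Topsym, Pold1 held 622 and 676 at day 0, 273 and 252 at day 1, 598 and 605 at day 3, and 613 and 728 at day 5. In SDS alone both day 0 libraries lay above all others, while with Topsym those of days 0 and 5 overlapped and those of day 3 lay just below them. Pole (ENSMUSG00000007080, chromosome 5, 110286306 to 110337474) held 349 and 323 at day 0, 113 and 143 at day 1, 234 and 256 at day 3, and 448 and 621 at day 5 of SDS alone. With Topsym, Pole held 410.1 and 364 at day 0, 115 and 138 at day 1, 496 and 467 at day 3, and 486 and 474 at day 5. No days of Pole overlapped in SDS alone, and with Topsym only days 3 and 5 did. All 4 were below day 0 at day 1 and at day 3 of SDS alone, and Prim1 alone had a lower mean at day 3 than at day 1 (-0.14, no call). Of the 4, only Pole rose from day 1 to day 3 of SDS alone (0.94), while all 4 rose in that step with Topsym, by log2 1.19 to 1.93. The difference between the arms in that step was called for all 4, led by Prim1 (log2 1.54, SE 0.15, adjusted p = 5.33e-07). The call of Pole at day 3 of SDS alone was lost without SDS_D0 replicate 1 or 2 or SDS_D3 replicate 1 or 2 (log2 -0.52 to -0.39).

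PCNA is the clamp that holds the polymerases on DNA, the RFC complex (here Rfc3, Rfc4 and Rfc5) loads it, RPA2 is part of the factor that coats single strands, and PCLAF binds PCNA. Pcna (ENSMUSG00000027342, chromosome 2, 132249162 to 132253314) held 1780.2 and 1743 at day 0, 1353 and 1195 at day 1, 1724 and 1804 at day 3, and 2578 and 2474 at day 5 of SDS alone. With Topsym, Pcna held 2039 and 2112 at day 0, 1152 and 1059 at day 1, 2523 and 2532 at day 3, and 2569.5 and 2532 at day 5. Against day 0 of SDS alone it was lower at day 1 (log2 -0.47) and higher at day 5 (0.52), and the day 0 and day 3 libraries of SDS alone overlapped. Rfc3 (ENSMUSG00000033970, chromosome 5, 151642756 to 151651242) had the largest day 5 change of the role (log2 1.34, SE 0.19, adjusted p = 8.14e-06). It held 277 and 339.8 at day 0, 218 and 169.6 at day 1, 330.5 and 230.4 at day 3, and 718 and 846 at day 5 of SDS alone. With Topsym, Rfc3 held 361 and 439.7 at day 0, 147 and 161 at day 1, 361 and 371 at day 3, and 689.8 and 524 at day 5. At day 3 its arms gave no call (0.41), although the libraries with Topsym lay above those without. The call of its fall at day 1 of SDS alone (-0.67) was lost without SDS_D0 replicate 2 or SDS_D1 replicate 2 (log2 -0.53 to -0.50), and that of its rise to day 3 (0.52) without SDS_D1 replicate 2 or SDS_D3 replicate 1 (log2 0.26 to 0.34).

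Pclaf (ENSMUSG00000040204, chromosome 9, 65890237 to 65903266) had the largest change at day 1 in both arms and is given in full for that reason, chosen after its values were seen. It held 500.3 and 331 at day 0, 54.4 and 67.2 at day 1, 128 and 117 at day 3, and 556 and 641 at day 5 of SDS alone. With Topsym it held 482 and 462 at day 0, 50.7 and 41.0 at day 1, 941 and 878 at day 3, and 958 and 877 at day 5. In SDS alone it was still low at day 3, below both day 0 libraries, while with Topsym the day 3 and day 5 libraries overlapped, all above day 0. The difference between the arms from day 1 to day 3 was log2 3.28 (SE 0.25, adjusted p = 2.53e-08 of limma). The call at day 5 of SDS alone against day 0 (0.55) was lost without SDS_D0 replicate 2 or SDS_D5 replicate 2 (log2 0.25 to 0.45).

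**Figure D4:**
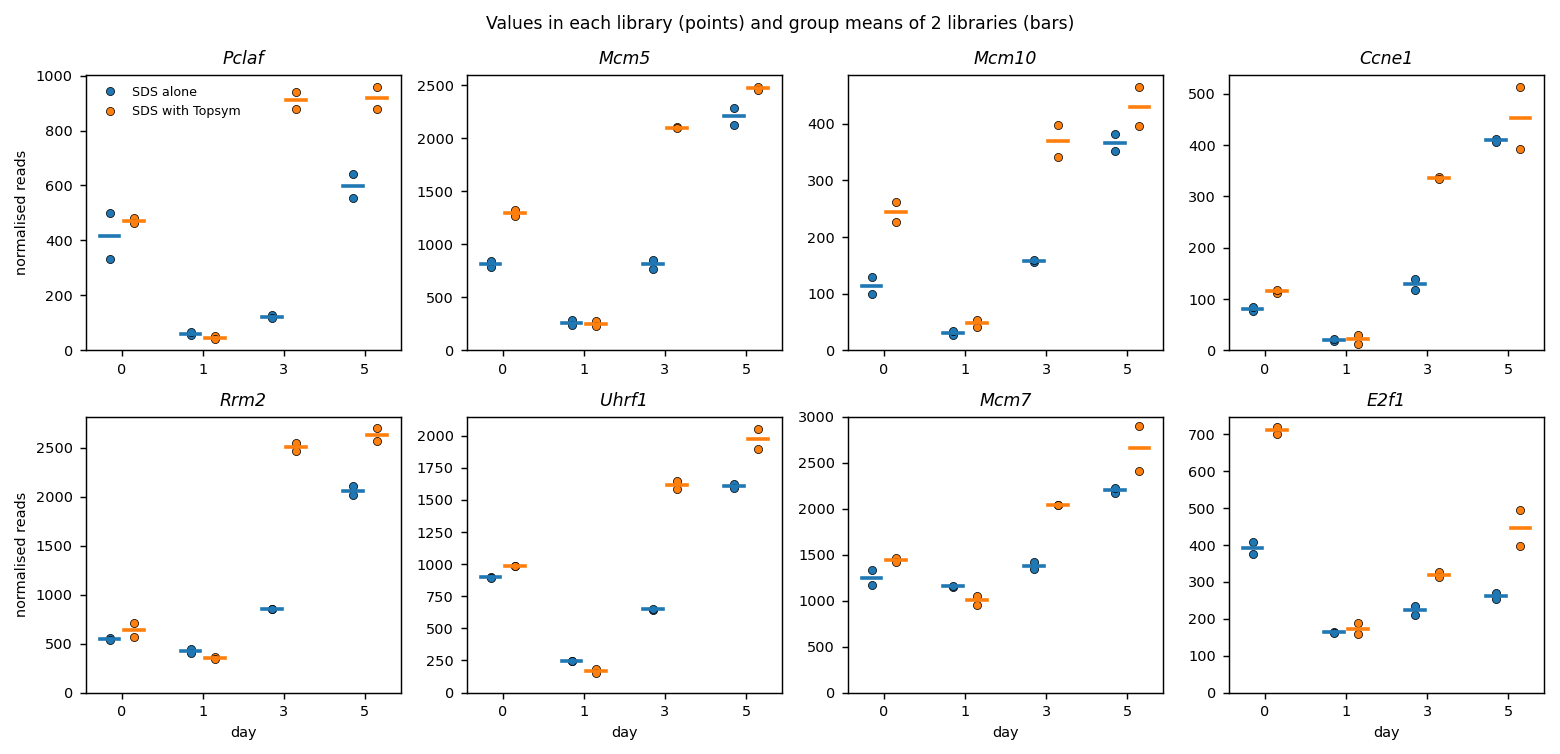
Normalised reads (y axis, from 0) in each library (points) with the mean of the 2 libraries (bars) by day (x axis) for 8 of the genes, in SDS alone (blue) and SDS with Topsym (orange). Pclaf at day 3 lies at 117 and 128 in SDS alone and at 878 and 941 with Topsym, and E2f1 is highest at day 0 in both arms.

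The flap nuclease FEN1 trims Okazaki fragments and the ligase LIG1 joins them. Lig1 (ENSMUSG00000056394, chromosome 7, 13277283 to 13311433) held 804 and 782 at day 0, 270.0 and 279 at day 1, 663 and 657 at day 3, and 1766 and 1613 at day 5 of SDS alone. With Topsym, Lig1 held 1153 and 1216 at day 0, 262 and 258 at day 1, 1379 and 1339.9 at day 3, and 2549 and 2419 at day 5. No days of Lig1 overlapped in either arm, and at day 5 it was above SDS alone (log2 0.56, SE 0.07, adjusted p = 7.33e-06). Fen1 (ENSMUSG00000024742, chromosome 19, 10199132 to 10204169) held 10.6 and 14.4 at day 0, 9.71 and 14.3 at day 1, 15.8 and 21.4 at day 3, and 35.6 and 26.9 at day 5 of SDS alone. With Topsym, Fen1 held 21.1 and 13.8 at day 0, 6.54 and 10.8 at day 1, 35.2 and 32.2 at day 3, and 30.3 and 19.2 at day 5. Its libraries of days 0 and 1 overlapped in SDS alone, and it was called in 2 of the 17 comparisons. These were day 5 against day 0 of SDS alone (log2 1.26, SE 0.47, adjusted p = 0.0266), a call lost without SDS_D0 replicate 1 or SDS_D5 replicate 1 (log2 1.05 to 1.06), and day 3 against day 1 with Topsym (log2 1.88, SE 0.47, adjusted p = 0.00352). The day 5 call was also lost with no filter and when only the libraries compared were fitted.

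Of the enzymes of nucleotide supply, RRM1 and RRM2 form ribonucleotide reductase, TYMS makes thymidylate and TK1 salvages thymidine. Rrm1 (ENSMUSG00000030978, chromosome 7, 102441695 to 102469771) held 1593 and 1589.9 at day 0, 760.4 and 815 at day 1, 1428 and 1395 at day 3, and 3454 and 3726 at day 5 of SDS alone. With Topsym, Rrm1 held 1709 and 1667 at day 0, 725 and 729.9 at day 1, 3764 and 3739.5 at day 3, and 4036 and 4376 at day 5. Its 2 libraries at day 3 with Topsym exceeded both at day 5 of SDS alone. Rrm2 (ENSMUSG00000020649, chromosome 12, 24708241 to 24714146) held 551 and 538 at day 0, 449 and 400.4 at day 1, 852 and 852 at day 3, and 2106 and 2011 at day 5 of SDS alone. With Topsym, Rrm2 held 709 and 562 at day 0, 362 and 342 at day 1, 2463 and 2543 at day 3, and 2697 and 2567 at day 5. Rrm2 dipped least of the 4 at day 1 (-0.36 in SDS alone, a call lost without SDS_D0 replicate 1 or SDS_D1 replicate 2 (log2 -0.34 to -0.28)) and was above day 0 by day 3 (log2 0.65, SE 0.09, adjusted p = 1.87e-05). The other subunit gene, Rrm1, fell at day 1 (log2 -1.01) and was still lower at day 3 (-0.17). Tyms (ENSMUSG00000025747, chromosome 5, 30058202 to 30073617) held 454 and 367 at day 0, 170.0 and 158 at day 1, 251 and 282 at day 3, and 586 and 497 at day 5 of SDS alone. With Topsym, Tyms held 509 and 435 at day 0, 170.1 and 157 at day 1, 623 and 695 at day 3, and 823 and 917 at day 5. At day 3 its libraries with Topsym were above day 0 and those of SDS alone below it. All 4 genes were higher with Topsym at day 3, by log2 1.00 to 1.55, and at day 5, by 0.23 to 0.68. The call of Tyms at day 5 of SDS alone (0.40) was lost without SDS_D0 replicate 2 or SDS_D5 replicate 1 (log2 0.25 to 0.29).

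E2F1 is an activator of S phase genes, and the E cyclins switch on CDK2 at the G1/S step. E2f1 (ENSMUSG00000027490, chromosome 2, 154559407 to 154569892) held 409.6 and 377 at day 0, 163 and 163 at day 1, 236 and 209.9 at day 3, and 269 and 254 at day 5 of SDS alone. With Topsym, E2f1 held 703 and 720.1 at day 0, 188 and 158 at day 1, 327 and 312 at day 3, and 494 and 398 at day 5. In both arms the day 0 libraries were the highest and those of day 1 the lowest, and those of days 3 and 5 lay between. It was the only gene of the 37 called lower than day 0 at day 5, in both arms (log2 -0.68, SE 0.13, adjusted p = 0.000229 with Topsym). Ccne1 (ENSMUSG00000002068, chromosome 7, 38097984 to 38107534) held 75.8 and 84.1 at day 0, 17.5 and 22.7 at day 1, 139.9 and 118 at day 3, and 413 and 407 at day 5 of SDS alone. With Topsym, Ccne1 held 113 and 118 at day 0, 29.4 and 13.1 at day 1, 339 and 333 at day 3, and 393 and 513 at day 5. Its day 5 libraries of SDS alone lay far above those of day 0 (log2 2.34, SE 0.29, adjusted p = 1.93e-06), and at day 3 the arms did not overlap (log2 1.38, SE 0.29, adjusted p = 0.000803). Ccne2, which encodes the other E cyclin, was above day 0 at day 3 with Topsym (log2 1.29, SE 0.27, adjusted p = 0.000622) but had no call at day 3 (-0.61) or day 5 (0.20) of SDS alone. At day 1 the fall of Ccne2 in SDS alone (-0.85) was lost without SDS_D0 replicate 1 or SDS_D1 replicate 1 or 2 (log2 -0.97 to -0.52).

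CHAF1A and CHAF1B are subunits of the CAF-1 chaperone, which lays histones on new DNA, and UHRF1 brings the maintenance DNA methyltransferase to it. Uhrf1 (ENSMUSG00000001228, chromosome 17, 56303321 to 56323486) held 903 and 894 at day 0, 242 and 242 at day 1, 642 and 652 at day 3, and 1620.5 and 1594 at day 5 of SDS alone. With Topsym it held 983 and 986 at day 0, 186 and 154 at day 1, 1582 and 1649 at day 3, and 2053 and 1895 at day 5. In SDS alone every pair of days differed without overlap, and day 3 lay between day 1 and day 0, while with Topsym day 3 was already above day 0 (log2 0.71, SE 0.08, adjusted p = 1.80e-06). Chaf1b (ENSMUSG00000022945, chromosome 16, 93883901 to 93906115) held 306 and 363 at day 0, 165 and 161 at day 1, 446 and 447 at day 3, and 872 and 788 at day 5 of SDS alone. With Topsym, Chaf1b held 482 and 462 at day 0, 119 and 128 at day 1, 677 and 664 at day 3, and 881 and 931 at day 5. Its day 3 libraries of SDS alone were above those of day 0 (0.42, a call lost without SDS_D0 replicate 1 (log2 0.30)), whereas Uhrf1 was lower than day 0 there (-0.47) and Chaf1a had no call (-0.09).

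Among the other 42 genes of the replication machinery that were listed, falls at day 1 and rises by day 5 were the more frequent calls. At day 1 of SDS alone 29 were lower and none higher (13.5% and 12.8% of all genes), with a median of log2 -0.51. The largest falls were those of Orc1 (-2.04), which marks origins, Dscc1 (-1.96), Recql4 (-1.89) and Dtl (-1.83). At day 5 of SDS alone 28 were higher and 3 lower (30.7% and 35.8% of all genes), with a median of 0.59. Orc1 (log2 2.41, SE 0.48, adjusted p = 0.000343 of limma) and Gmnn (2.03), which encodes geminin, the inhibitor of CDT1, led. At day 1 with Topsym 35 were lower (20.5% of all genes), led by Dtl (-3.14) and Exo1 (-2.89). At day 3 of SDS alone 28 of the 42 had no call against day 0, where 49.6% of all genes were called. From day 3 to day 5 with Topsym 23 had no call, where 62.2% of all genes were called. At day 3 with Topsym 21 were above day 0 and 4 below (27.0% and 28.2% of all genes), with a median of 0.33, beside 0.32 for the 37. Between the arms 31 had no call at day 0 and 39 at day 1, where 22.0% and 9.80% of all genes were called. At day 3 33 were higher with Topsym than without and 1 was lower, Pold4 (-0.49), with a median of 0.65 (20.8% and 22.9% of all genes).

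The 21 other regulators of the G1/S step were called in both directions. At day 1 of SDS alone 3 were higher and 9 lower (12.8% and 13.5% of all genes), led by the fall of Ccnd1 (log2 -1.07, SE 0.07, adjusted p = 3.32e-09), which encodes cyclin D1. At day 5 of SDS alone 10 were higher and 7 lower, where 30.7% of all genes were called higher and 35.8% lower. The repressor genes E2f7 (log2 2.79, SE 0.18, adjusted p = 7.73e-10) and E2f8 (2.63) rose most, and Ccnd2 (-2.06) and E2f6 (-1.19) fell most. E2f7 went from 96.6 ± 1.70 normalised reads at day 0 to 672 ± 51.1 at day 5 of SDS alone. Myc, an activator of growth genes, was higher than day 0 at day 1 (0.27) and at day 5 (0.56) of SDS alone. At day 3 13 of the 21 were higher with Topsym and 2 lower (20.8% and 22.9% of all genes), led by Ccnd1 (1.40).

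Genes of mitosis had calls in both directions from day 1 to day 3 of SDS alone, and all rose in that step with Topsym. The summed level of 20 mitosis genes was 9637 ± 394, 7297 ± 135, 7483 ± 122 and 25613 ± 559.7 normalised reads at days 0, 1, 3 and 5 of SDS alone. With Topsym it was 12619 ± 22.4, 7109.8 ± 5.26, 26788 ± 84.9 and 42599.5 ± 783. From day 1 to day 3 of SDS alone 6 of the 20 rose and 4 fell (median log2 0.02), shares near those of all genes (23.6% higher and 18.6% lower). In the same step 28 of the 37 replication genes rose. By day 5 of SDS alone all 20 were above day 0 (30.7% of all genes), with a median of 1.53. At day 3 all 20 were higher with Topsym than without (20.8% of all genes), with a median of 1.84. Mki67, the marker of cycling cells, fell at day 1 of SDS alone (-0.81), stayed down at day 3 (-0.85) and rose by day 5 (log2 0.98, SE 0.06, adjusted p = 7.47e-10). Top2a and Ccna2, which act from S phase into mitosis, stood at -0.52 and -0.42 at day 3 against day 0.

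**Figure D5:**
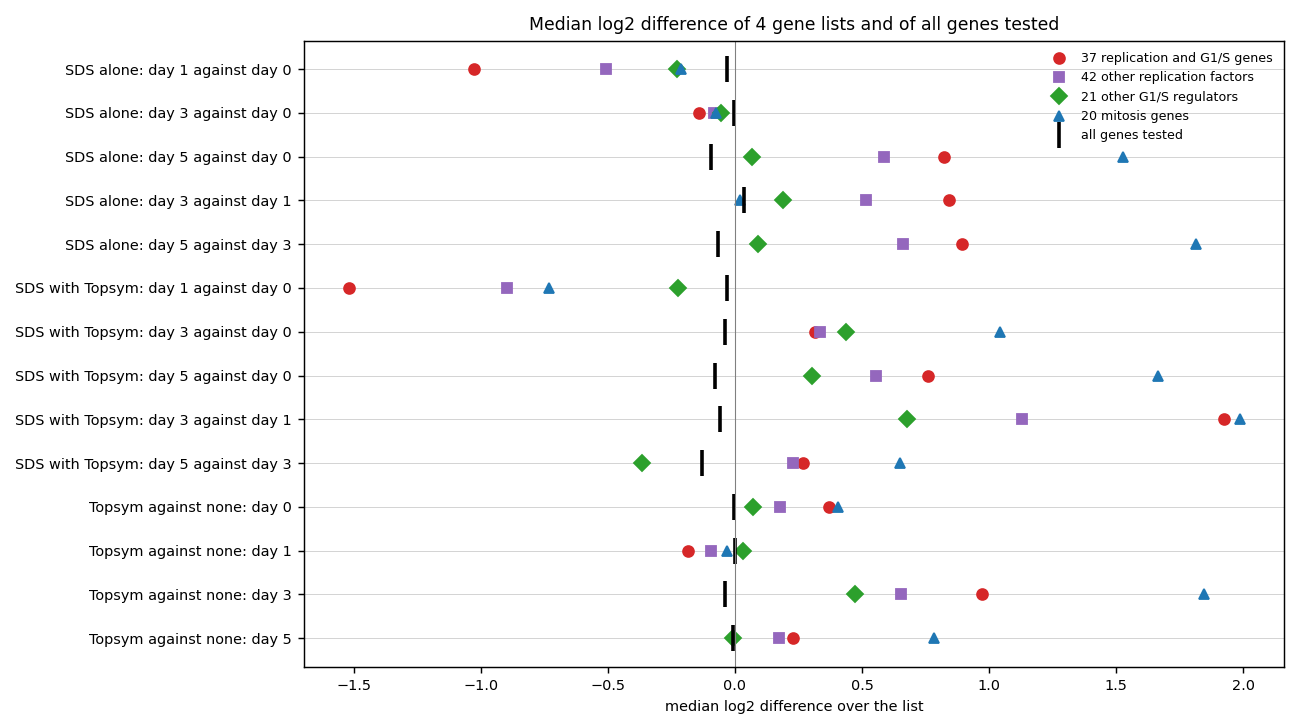
Median log2 difference (x axis) of the 37 replication and G1/S genes (red circles), 42 other replication factors (purple squares), 21 other G1/S regulators (green diamonds), 20 mitosis genes (blue triangles) and all genes tested (black bars) in 14 comparisons. The red circles lie farthest left at day 1 in both arms, and for day 3 against day 1 of SDS alone the mitosis median is 0.02 where that of the 37 genes is 0.84.

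The levels of cell type markers in the skin samples also changed over the course, and not all of them in the directions of these genes. The summed level of 6 basal keratinocyte markers was 283956, 273606, 224505 and 859228 in SDS alone on the days from 0 to 5 in order, and 304462, 235686, 594049.5 and 1258886 with Topsym. Krt5 and Krt14 carry most of this sum. From day 3 to day 5 all 6 markers were called higher in SDS alone, whereas with Topsym 2, Krt5 and Krt14, were higher and the other 4 lower (median log2 -0.23). Against day 0, 5 were higher and 1 lower at day 5 of SDS alone, and 4 and 2 with Topsym. At day 3 all 6 were higher with Topsym than without (Krt5 at log2 1.44), and their median was 1.16, beside 0.97 for the 37 genes. At day 1 of SDS alone 4 of the 6 were higher and 1 lower, while 32 of the 37 genes fell.

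The summed level of 6 fibroblast markers was 294222, 164431, 94459.7 and 14213 over days 0, 1, 3 and 5 of SDS alone, and 410723, 214036, 28317 and 6017 with Topsym. The 6 muscle markers, whose day 0 sums stand above, summed to 291979 at day 1, 377146 at day 3 and 73477 at day 5 of SDS alone, and to 422078, 176106 and 113858 with Topsym. From day 0 to day 1, the step in which the replication genes fell, all 6 rose with Topsym and all 6 fell in SDS alone. The 7 neutrophil markers summed to 288, 854, 60145 and 266617 in SDS alone, and to 391, 889, 2584 and 36349 with Topsym. S100a8 and S100a9, which keratinocytes also make, rose from day 3 to day 5 of SDS alone (log2 2.25 and 2.85) while the other 5 fell (median of the 7 log2 -2.81). In that step with Topsym 3 rose and 2 fell. Ly6g, a defining marker of neutrophils, was at 0 in 14 of the 16 libraries and had reads in both libraries of day 3 of SDS alone. Of 8 listed markers of other leukocytes 6 were tested, and all 6 were lower at day 5 of SDS alone than at day 0. The sum over all 8 was 6054 at day 0 and 1923 at day 5 of SDS alone. Of the 7 measured genes of the hair matrix and shaft, 6 were lower at day 1 than at day 0 with Topsym and none higher, and 1 was higher and 1 lower in SDS alone. With Topsym against none, none of the 7 was called at day 1, and 1 was higher at day 3. The part of these shifts in the replication genes' changes was not tested.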

How the data were processed

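Total RNA of whole skin was extracted with RNeasy Micro columns and made into strand-specific Agilent SureSelect libraries, per the labels' protocols. For the steps from reads to values, the submitters' processing notes name the tools Trim Galore (0.6.7), HISAT2 (2.2.1), featureCounts (2.0.3) and DESeq2 (2.11.40.8) and the build mm10; the annotation and the strand setting are not given in the sources used here. The deposited signal is each gene's read count divided by 1 size factor for its library, computed by the authors, so depth is removed but gene length is not. Whole reads were recovered from 100% of the values within a tolerance of 1e-04, and the 16 libraries held 15199656 to 32066246 of them. Within a group the libraries differed by more than the sampling noise of independent reads. Even numbers made up 69.9% to 76.8% of the recovered counts from 1 to 20 in the libraries. A count may thus stand for fewer independent fragments than reads, which was not tested.

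The main test was limma 3.58.1 (R 4.3.3, trend) on log2(value + 1) over genes with at least 10 in at least 2 libraries, 19189 of 32078, with all 16 libraries in 1 fit (8 residual degrees of freedom), 17 comparisons and Benjamini-Hochberg adjustment over all genes in each; a call is an adjusted p under 0.05. The pseudocount makes changes of low genes look smaller. The fitting steps were tested on simulated data for day 1 against day 0 of SDS alone. They recovered 33 of 67 changes of 1.5-fold, 39 of 67 of 2-fold and 55 of 66 of 4-fold, and 3.79% of the calls were false. A gene without a call may therefore still have changed. Those changes lay among 19521 genes tested, a far smaller share than the 26.2% of genes called for this comparison in the libraries. Whether the rates hold at that larger share was not tested. The alternatives tried were TMM scaling, a pseudocount of 4, no filter, only the libraries compared, a replicate block, edgeR 4.0.16 and DESeq2 1.42.0 on the recovered reads, each library left out and, chosen after seeing the data, the day 5 libraries left out.

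The genes and the lists of other genes were chosen with earlier results of these data known. In each role, values in every library are given for the gene with the highest mean and for those with the largest and smallest change from day 0 to day 5 of SDS alone; from each other list at most 4 genes are named, those with the largest called changes, besides Mki67, Top2a, Ccna2, Cdkn1a, Cdkn1c, Ccnd1, Myc, Krt5 and Krt14. The library values of Pclaf, and Mcm7 in the plot by library, were chosen after values were seen. Gene positions and exon overlaps are from GENCODE M21 (GRCm38, the build of the files), and promoter sequences from RefSeq (GRCm38.p6).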

Additional observations from a re-analysis of the deposited data

Results flagged for a closer look

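The change between days differed between SDS alone and SDS with Topsym by limma's test of the difference itself, in all 3 steps of the course. From day 0 to day 1 this held for 17 of the 37 genes, where 17.2% of all genes were called. The largest differences were in Rfc4 (log2 -1.04), Mcm6 (-0.93) and Chaf1b (-0.91). This step starts from day 0 groups that themselves differ. The call of Rfc4 was lost without SDS_D0 replicate 1, SDS_D0_Topsym replicate 2, SDS_D1 replicate 1 or SDS_D1_Topsym replicate 1 (log2 -1.04 to -0.82). From day 1 to day 3 it held for 28 (34.8% of all genes called), with the largest in Pclaf (3.28), Ccne2 (2.01) and Uhrf1 (1.83). From day 3 to day 5 it held for 23 (37.3% of all genes called), with the largest in Pclaf (-2.27), Prim1 (-1.37) and Clspn (-1.34). Adjacent steps share the libraries of a day, so they are not separate results.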

How the results depend on the processing

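Of the 412 called changes of the 37 genes over 17 comparisons, 330 held in every setting, 379 in every setting other than a left-out library, and 0 reversed direction. Some calls given above as lost without a library were lost in other settings too. Ccne2, Rfc3, Rpa2 and Rrm2 at day 1 of SDS alone were lost when only the libraries compared were fitted. With Topsym, Prim1 at day 5 against day 0 was lost with no filter and with DESeq2. Mcm5 at day 5 against day 3 was lost with no filter and with the replicate block. The number called between the arms at day 1 (4, all lower) was 1 when only the libraries compared were fitted and 7 with edgeR, all lower in both, and 7 with the day 5 libraries left out. At day 5 it was 8, all higher, when only the libraries compared were fitted (13 in the full fit). With each library left out in turn, the count at day 1 between the arms ran from 2 to 6 (2 to 5 lower), that from day 3 to day 5 with Topsym from 11 to 19, that of the difference between arms from day 0 to day 1 from 11 to 18, the genes higher at day 3 than day 0 of SDS alone from 3 to 6, and the genes lower than day 0 from 1 to 2 at day 5 of SDS alone and from 1 to 3 at day 3 with Topsym. The cause of these shifts was not tested; a left-out library leaves a group of 1, taken to vary like the others.

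Replicate numbers did not pair the libraries: over 28 pairs of same-numbered libraries the correlation of deviations ran from -0.031 to 0.030, with 0 over 0.1. A replicate block kept 410 of the 412 calls, lost 2 and gained 2, and gave 32 calls at day 1 of SDS alone. Depth limits the genes with few reads, such as Fen1, whose day 5 change in SDS alone had an SE of 0.47. TMM scaling lost 0 calls and gained 6.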

Other observations

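The CDK inhibitors, which hold cells before the G1/S step, were called in both directions. Of the 7 listed, 6 were measured, and Cdkn2a was not tested, with 0 reads in 6 of the 16 libraries. At day 1 of SDS alone Cdkn1a was the 1 called higher and 2 were lower (12.8% and 13.5% of all genes). The median of the 6 was log2 -0.21. Cdkn1a, which encodes p21, stood at 6994 ± 79.9 normalised reads at day 0, 10338 ± 12.6 at day 1, 8041 ± 1.54 at day 3 and 7313 ± 311 at day 5 of SDS alone (SD, n = 2). With Topsym it stood at 6996 ± 42.2, 11974 ± 146, 10143 ± 73.7 and 13313 ± 68.5. It was higher at day 1 than at day 0 in both arms (log2 0.56, SE 0.04, adjusted p = 1.34e-08 in SDS alone and 0.78 with Topsym). At day 5 it was higher with Topsym than without (log2 0.86, SE 0.04, adjusted p = 5.28e-11). Cdkn1c, which encodes p57, stood at 449 ± 35.8 at day 3 of SDS alone and 218 ± 5.22 with Topsym (log2 -1.04, SE 0.14, adjusted p = 1.18e-05). Adjusted p-values are limma's.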
